A study of Mus musculus with 19 samples.

Results

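The transcripts described are 10 genes of the redox pathway of NRF2, out of 31053 genes counted in mouse liver: *Gclc*, *Gclm* and *Slc7a11* of glutathione synthesis, *Gsr* of glutathione recycling, *Txnrd1* and *Srxn1* of the thioredoxin and peroxiredoxin systems, *Nqo1* and *Hmox1* of quinone and heme metabolism, *Osgin1*, and *Nfe2l2*, which encodes NRF2 itself. They were selected by their place in the pathway once it was known that *Gclc* and *Gsta2*, a further NRF2 target, ranked near the top, by p, of the genes lower in AAV-miR-34b/c livers than in AAV-GFP livers, and with results of the AAV-GFP and vehicle comparison in view. The values of *Gclc* and *Gsta2* in these comparisons are therefore a description and are given without a test, and the calls of the other genes support nothing about the list. Each gene matched 1 row of the table.

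NRF2 is a transcription factor that the adaptor KEAP1 binds in the cytoplasm and hands to a ubiquitin ligase. When electrophiles or oxidants modify cysteines of KEAP1, NRF2 escapes degradation, enters the nucleus and binds the antioxidant response element as a dimer with a small MAF protein. Its targets in hepatocytes make glutathione, supply reduced thioredoxin and conjugate or reduce reactive compounds, which is why the pathway is studied in toxic liver injury.

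The libraries came from livers of male C57BL6J mice that were 6 to 8 weeks old when the study began. The 5 vehicle mice received PBS, and their labels name no vector. The 7 AAV-GFP mice were treated with thioacetamide (TAA), a hepatotoxin that hepatocytes convert to reactive metabolites, at rising doses for 12 weeks, and were injected after 10 weeks with a serotype 8 adeno-associated vector (AAV) for green fluorescent protein (GFP). The 7 AAV-miR-34b/c mice received the same TAA course and a combination of vectors for miR-34b and miR-34c. Both kinds of vector carry the thyroxine-binding globulin (TBG) promoter, which is active in hepatocytes. Livers were taken 4 weeks after the injection, when TAA had ended. The 2 TAA groups thus differ in the vector alone, whereas either of them differs from vehicle livers in TAA and vector together, and these cannot be told apart. All 3 comparisons share groups of libraries, so that their results are not independent.

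Libraries held 2214073 to 5208405 counts, with medians of 2858900 for vehicle, 3116304 for AAV-GFP and 3040202 for AAV-miR-34b/c. *Alb*, the main plasma protein of hepatocytes, was at 20115 to 52542 CPM (counts scaled to the normalised library size) in every library, and no gene of the hepatocyte list was at 0. Of the 52 pairs of libraries within a group, 7 differed by a coefficient of variation of only 0.0779 to 0.196 beyond counting noise, against 0.201 to 0.429 for the other 45 pairs. The labels call every library a biological replicate. Summing each of these close pairs leaves 3 samples of vehicle livers, 5 of AAV-GFP livers and 4 of AAV-miR-34b/c livers, and calls are given below also on that basis. In bulk liver, fewer cells of a type and less RNA per cell cannot be told apart.

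Promoters of 7 of the 10 genes were in the RefSeq promoter table of GRCm38.p6, as windows from 250 bases before to 50 bases after a start site. They were searched on both strands for TGACNNNGC, the core of the antioxidant response element. Any window held it for 4 of the 7 genes, *Gclm*, *Txnrd1*, *Srxn1* and *Nfe2l2*, against 14.0% of the 27025 genes in the table and 12.4% of all 32851 windows of 300 bases. The windows of *Nqo1*, *Slc7a11* and *Osgin1* did not hold these letters. A match is a description of the sequence and not a bound site. The matching windows are shown because the element is the one NRF2 is known to bind, 5′ to 3′ along the gene, with the match in capitals.
Gclm promoter, chr3:122245307-122245606, plus strand: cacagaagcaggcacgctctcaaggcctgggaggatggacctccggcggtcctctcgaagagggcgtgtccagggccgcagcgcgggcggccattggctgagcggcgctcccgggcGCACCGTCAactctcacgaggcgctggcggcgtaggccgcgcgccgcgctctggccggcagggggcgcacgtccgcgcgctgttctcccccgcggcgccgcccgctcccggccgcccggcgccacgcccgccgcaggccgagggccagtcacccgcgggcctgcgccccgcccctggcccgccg
Txnrd1 promoter, second of 3 windows, chr10:82858956-82859255, plus strand: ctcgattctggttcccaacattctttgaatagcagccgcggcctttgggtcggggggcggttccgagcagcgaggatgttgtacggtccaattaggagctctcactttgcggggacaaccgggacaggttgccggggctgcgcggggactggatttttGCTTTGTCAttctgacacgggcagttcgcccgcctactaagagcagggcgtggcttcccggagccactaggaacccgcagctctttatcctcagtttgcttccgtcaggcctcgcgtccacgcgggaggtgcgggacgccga
Srxn1 promoter, chr2:152105274-152105573, plus strand: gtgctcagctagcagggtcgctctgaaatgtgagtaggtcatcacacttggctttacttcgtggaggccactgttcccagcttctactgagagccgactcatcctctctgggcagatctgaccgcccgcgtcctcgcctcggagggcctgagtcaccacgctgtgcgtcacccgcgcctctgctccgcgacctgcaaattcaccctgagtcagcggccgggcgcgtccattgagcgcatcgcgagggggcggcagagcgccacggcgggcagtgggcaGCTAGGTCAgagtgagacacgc
Nfe2l2 promoter, chr2:75704614-75704913, minus strand: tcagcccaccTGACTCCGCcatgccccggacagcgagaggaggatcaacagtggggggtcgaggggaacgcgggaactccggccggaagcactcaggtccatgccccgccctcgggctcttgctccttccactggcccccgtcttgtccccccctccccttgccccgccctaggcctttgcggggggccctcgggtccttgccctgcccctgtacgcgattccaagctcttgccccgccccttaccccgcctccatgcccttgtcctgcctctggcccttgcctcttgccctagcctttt
The match began 134 bases upstream of the start site in *Gclm*, 92 bases upstream in *Txnrd1* and 240 bases upstream in *Nfe2l2*, and 28 bases downstream in *Srxn1*. It read along the gene's strand in *Nfe2l2* and along the other strand in the remaining 3 genes.

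The vectors of the treated group express miR-34b and miR-34c. The mature miR-34b-5p is shown from RefSeq (GRCm38.p6, chr9:51103610-51103632, minus strand) because its seed, bases 2 to 8 in capitals, sets which transcripts it can pair with.
miR-34b-5p: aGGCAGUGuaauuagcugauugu
The letters that pair with the seed, CACTGCC, were searched in the longest annotated 3′ UTR of each gene (GENCODE M21). They were found in 2 of the 10 genes, against 17.4% of the 9122 genes with a 3′ UTR that were tested between the TAA groups. The longest 3′ UTR of these 9122 genes had a median of 1192 bases, and longer ones hold more matches by chance. *Slc7a11* could not be tested and is not among them, so that the 2 shares are of unlike sets. *Gclc*, with a 3′ UTR of 1234 bases, held no match, and *Osgin1* held 1 and *Slc7a11* 2. The sites are shown with the match in capitals.
Osgin1, base 73 of 1267: ggtgccgtggtCACTGCCgtggagtgggc
Slc7a11, base 2197 of 7364: aggtctatgaaCACTGCCtgacgcacatg
Slc7a11, base 6745 of 7364: gattggaaacaCACTGCCtagacaaaaat

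*Gclc* was the gene of the group whose level separated the libraries. It encodes the catalytic subunit of glutamate-cysteine ligase, the rate-limiting enzyme of glutathione synthesis (chr9:77754535-77794485, plus strand, GRCm38). Vehicle livers had 134, 158, 156, 139 and 138 CPM. AAV-GFP livers ran from 291 to 497 CPM with a median of 442. AAV-miR-34b/c livers ran from 145 to 213 CPM with a median of 171. Every AAV-GFP library was above every vehicle library and above every AAV-miR-34b/c library, and 5 of the 7 AAV-miR-34b/c libraries lay above all vehicle libraries. Mean levels were 145 ± 11.1 (SD, n = 5) in vehicle, 418 ± 65.3 (SD, n = 7) in AAV-GFP livers, and 170 ± 22.8 CPM (SD, n = 7) with miR-34b/c, at 342 to 1799 counts a library. The fitted log2 fold change was -1.31 (SE 0.14) between the TAA groups (AAV-miR-34b/c relative to AAV-GFP throughout) and 1.53 (SE 0.16) between AAV-GFP and vehicle. By p it had rank 3 among the 4712 genes with a negative fold change in the former and rank 4 among the 4695 with a positive fold change in the latter, ranks that the choice of the gene fixes. Between AAV-miR-34b/c and vehicle, the log2 fold change was 0.24 (SE 0.13, 95% interval -0.05 to 0.52, adjusted p = 0.211 by edgeR's quasi-likelihood test). This value follows nearly from the 2 others, in which the gene was chosen, so that its p is no independent test. With close pairs summed, *Gclc* was at -1.22 (SE 0.20) and 1.47 (SE 0.23) in the first 2 of these comparisons.

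Across the whole table, 1.42% of the genes tested were called lower and 1.95% higher between the TAA groups (adjusted p under 0.05), and 0.616% lay lower without overlap between the groups. Between AAV-GFP and vehicle, 7.54% were called higher, 5.19% lower, and 2.57% lay higher without overlap. Between AAV-miR-34b/c and vehicle, 12.2% were called higher and 9.75% lower. Leaving aside *Gclc*, whose place in the first 2 comparisons the choice fixed, none of the other 8 genes that could be fitted was called by edgeR or lay without overlap in them. The 95% intervals of 5 of the 8 (*Gclm*, *Gsr*, *Hmox1*, *Osgin1* and *Nfe2l2*) did not include 0 between the TAA groups, which is an unadjusted p under 0.05 and was so for 15.3% of all genes. There DESeq2 called 1 of the 8 (4.77% of all genes it tested) and limma-voom 2 (8.79%). Between AAV-GFP and vehicle the interval of 1 (*Srxn1*) did not include 0 (29.7% of all genes), and DESeq2 called 0 of the 8 (12.5%) and limma-voom 1 (28.2%). None of the 9, *Gclc* included, was called in the third by edgeR, where the 95% intervals of 3 of them (*Gclm*, *Srxn1* and *Osgin1*) did not include 0 (36.9% of all genes), while DESeq2 called 1 (21.2%) and limma-voom 3 (41.3%). Nothing about the 9 genes is read from these counts. *Slc7a11* had too few counts for the fit.

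**Figure D1:**
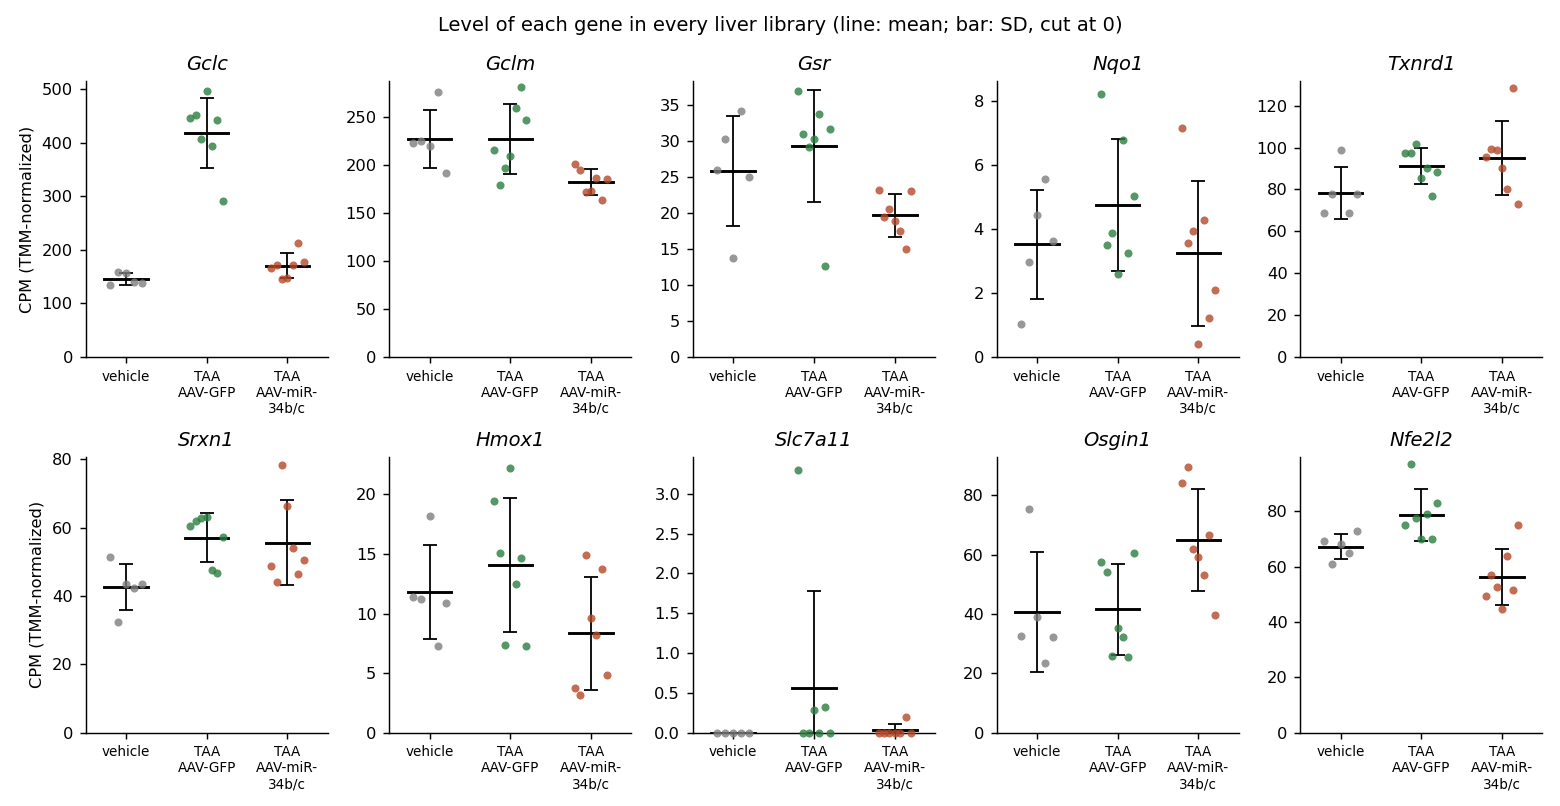
Level of each of the 10 genes in CPM (vertical axis, linear, starting at 0) in every library of the 3 groups, 1 point per library, with the group mean as a line and the SD as a bar cut at 0. The 7 AAV-GFP points of *Gclc*, at 291 to 497 CPM, stand above all other points of the gene, whereas the groups overlap in the 9 other genes.

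*Gclm*, the modifier subunit that raises the affinity of GCLC for glutamate (chr3:122245557-122270732, plus strand), had overlapping levels in AAV-GFP and vehicle livers. *Gclc* was chosen with its results there in view, so that a contrast with its partner is a description. Between the TAA groups both genes had negative log2 fold changes. The difference between the genes was not tested in either comparison. Vehicle livers had 223, 226, 219.9, 277 and 192 CPM. AAV-GFP livers ran from 179 to 282 CPM with a median of 216, inside much the same range. AAV-miR-34b/c livers ran from 164 to 201 CPM with a median of 186, and all 7 lay below the AAV-GFP median and below the vehicle median. Between AAV-GFP and vehicle, *Gclm* had a log2 fold change of 0.0016 with a 95% interval of -0.32 to 0.33. It was -0.33 (SE 0.13, adjusted p = 0.198 by edgeR) between the TAA groups, where it passed with library size as the only scaling (-0.52, adjusted p = 0.0161), and -0.32 (SE 0.13, adjusted p = 0.0861) for AAV-miR-34b/c against vehicle. GENCODE places a transcript on the opposite strand (*Gm17494*) and a pseudogene on the same strand (*Gm6061*) over *Gclm*, and neither has a row of its own in the table. The difference between AAV-miR-34b/c and vehicle crossed the threshold with DESeq2 (adjusted p = 0.0361), with limma-voom (0.0279) and with library size as the only scaling (0.0163). With close pairs summed, *Gclm* was not called there (adjusted p = 0.305 by edgeR) or between the TAA groups (0.435).

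The ratio of *Gclc* to *Gclm* counts within a library, which no scaling between libraries touches, was 0.598, 0.699, 0.710, 0.504 and 0.718 in vehicle livers. It ran from 1.18 to 2.53 with a median of 2.06 in AAV-GFP livers and from 0.829 to 1.30 with a median of 0.882 in AAV-miR-34b/c livers. Vehicle ratios lay below those of both TAA groups, whereas the highest AAV-miR-34b/c library (replicate 6) lay above the lowest AAV-GFP library (replicate 7). Means were 0.646 ± 0.0932 (SD, n = 5), 1.90 ± 0.492 (SD, n = 7) and 0.939 ± 0.167 (SD, n = 7). The ratio contains *Gclc* and is given without a test, and as a ratio of counts between genes it is read only across groups.

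**Figure D2:**
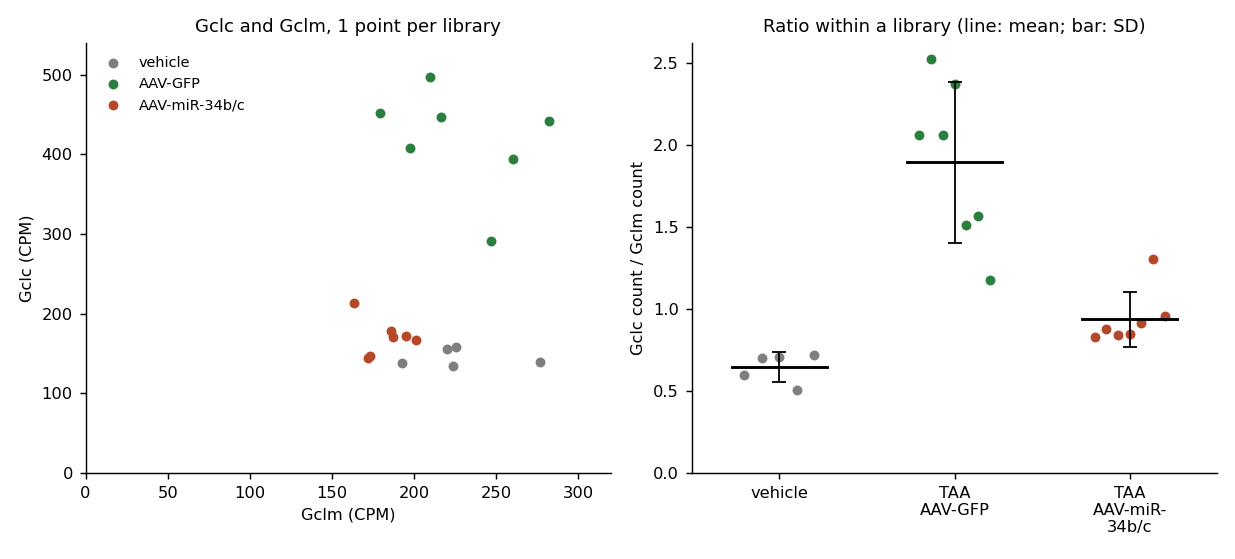
Left, *Gclc* against *Gclm* in CPM, 1 point per library, coloured by group, with both axes starting at 0. Right, the ratio of their counts within each library with the group mean (line) and SD (bar). AAV-GFP libraries are shifted upward along the *Gclc* axis with *Gclm* at 179 to 282 CPM, and their ratios of 1.18 to 2.53 lie above all vehicle ratios.

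*Slc7a11*, the light chain of the cystine importer that feeds glutathione synthesis (chr3:49892526-50443614, minus strand), was close to undetected. All 5 vehicle libraries had 0 counts. The 7 AAV-GFP libraries had 10 counts in replicate 1, 1 count each in replicates 4 and 6, and 0 in the others. AAV-miR-34b/c replicate 6 had 1 count, and the 6 other libraries of that group had 0. An exact permutation test, two-sided and on log2 CPM, gave p = 0.192 between the TAA groups (n = 7 and 7), and p = 0.417 for AAV-GFP and p = 1.0 for AAV-miR-34b/c against vehicle. A difference in this gene was not detectable at this depth.

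*Gsr*, glutathione reductase, which restores reduced glutathione with NADPH (chr8:33652523-33698163, plus strand), had 25.9, 30.3, 13.7, 34.2 and 25.0 CPM in vehicle livers. Those of AAV-GFP mice ran from 12.7 to 37.0 CPM with a median of 30.9. AAV-miR-34b/c livers ran from 14.99 to 23.2 CPM with a median of 19.5. All 7 AAV-miR-34b/c libraries lay below the median of both other groups but inside their ranges, because AAV-GFP replicate 6 (12.7 CPM) and vehicle replicate 3 (13.7 CPM) lay low. *Gsr* did not pass the test between the TAA groups (log2 fold change -0.59, SE 0.20, adjusted p = 0.122 by edgeR). Without AAV-GFP replicate 6 it did (-0.72, adjusted p = 0.0117), as it did with limma-voom (adjusted p = 0.0244) and with library size as the only scaling (adjusted p = 0.0304). It fell further short by edgeR with close pairs summed (adjusted p = 0.455), with the replicate block (0.199) and with no filter on low counts (0.170). Against vehicle, it was at 0.18 (SE 0.24, adjusted p = 0.653) in AAV-GFP and -0.40 (SE 0.21, adjusted p = 0.168) in AAV-miR-34b/c livers, the latter passing without vehicle replicate 3 (-0.56, adjusted p = 0.0428).

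*Txnrd1* encodes the cytosolic thioredoxin reductase (chr10:82833951-82897712, plus strand). Its levels were 68.7, 77.8, 98.9, 68.8 and 78.0 CPM in vehicle livers, 76.7 to 102 CPM (median 90.3) in AAV-GFP livers and 73.2 to 129 CPM (median 95.6) in AAV-miR-34b/c livers. The ranges overlapped in all 3 comparisons. Log2 fold changes were 0.054 (95% interval -0.24 to 0.34, adjusted p = 0.909) between the TAA groups, and 0.22 (adjusted p = 0.338) and 0.29 (adjusted p = 0.203) for AAV-GFP and AAV-miR-34b/c against vehicle by edgeR. The gene *Eid3* lies inside *Txnrd1* on the same strand and had 16 counts in all libraries together, against 5457 for *Txnrd1*.

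*Srxn1*, sulfiredoxin, which reactivates overoxidized peroxiredoxins (chr2:152105516-152111376, plus strand), had 51.5, 32.3, 43.4, 42.4 and 43.6 CPM in vehicle livers. AAV-GFP livers ran from 46.8 to 63.2 CPM with a median of 60.4. AAV-miR-34b/c livers ran from 44.1 to 78.4 CPM with a median of 50.6. Both TAA groups lay wholly above the vehicle median, and 5 of 7 AAV-GFP and 3 of 7 AAV-miR-34b/c libraries exceeded every vehicle library. The log2 fold change was 0.43 (SE 0.16, adjusted p = 0.0900 by edgeR) for AAV-GFP against vehicle and 0.38 (SE 0.18, adjusted p = 0.126) for AAV-miR-34b/c against vehicle. The former passed the test without AAV-GFP replicate 6 (0.47, adjusted p = 0.0491) and with limma-voom (adjusted p = 0.0414), and the latter with limma-voom (adjusted p = 0.0313). With close pairs summed, neither passed (adjusted p = 0.340 and 0.297 by edgeR). Between the TAA groups the log2 fold change was -0.053 (95% interval -0.37 to 0.26, adjusted p = 0.921).

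*Nqo1*, a quinone reductase that is often used as a readout of NRF2 (chr8:107388225-107403206, minus strand), was low, with 1 to 31 counts a library. Vehicle livers had 1.04, 2.97, 4.43, 5.57 and 3.64 CPM. In the AAV-GFP group it ran from 2.60 to 8.25 CPM (median 3.88) and AAV-miR-34b/c livers from 0.400 to 7.17 CPM (median 3.58). The groups overlapped throughout, and at these counts the intervals were wide. The log2 fold change was -0.58 (95% interval -1.47 to 0.32, adjusted p = 0.592) between the TAA groups, 0.42 (-0.41 to 1.26, adjusted p = 0.501) for AAV-GFP and -0.14 (-1.21 to 0.93, adjusted p = 0.865) for AAV-miR-34b/c against vehicle by edgeR. Without 1 library, these 3 values ran from -0.90 to -0.39, from 0.20 to 0.70 and from -0.47 to 0.12. With limma-voom they were -1.09, 0.50 and -0.58, and no setting called the gene.

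*Hmox1*, heme oxygenase 1, which splits heme into biliverdin, iron and carbon monoxide and is high in macrophages that clear red cells (chr8:75093621-75100589, plus strand), had 11.4, 11.2, 18.2, 7.27 and 10.9 CPM in vehicle livers. AAV-GFP livers ran from 7.27 to 22.2 CPM (median 14.6), and AAV-miR-34b/c livers from 3.18 to 14.95 CPM (median 8.21). In AAV-miR-34b/c livers 3 of 7 libraries lay below all AAV-GFP and all vehicle libraries. The log2 fold change was -0.74 (SE 0.34, adjusted p = 0.305 by edgeR) between the TAA groups, 0.28 (SE 0.30, adjusted p = 0.550) for AAV-GFP and -0.45 (SE 0.36, adjusted p = 0.386) for AAV-miR-34b/c against vehicle. Without 1 library, these 3 values ran from -0.94 to -0.59, from 0.14 to 0.49 and from -0.65 to -0.25. The summed level of 12 macrophage markers was 534 to 1017 CPM in vehicle, 444 to 723 CPM in AAV-GFP and 652 to 896 CPM in AAV-miR-34b/c livers. Of 11 tested markers, 2 were called higher (1.95% of all genes) and 0 lower between the TAA groups, and with close pairs summed 0 of the 11 were called. The part of macrophages in the *Hmox1* values was not tested.

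*Osgin1*, an oxidative stress induced growth inhibitor (chr8:119434124-119446256, plus strand), had the largest positive log2 fold changes of the 9 tested genes in AAV-miR-34b/c livers relative to both other groups. Vehicle livers had 32.5, 75.4, 39.0, 23.5 and 32.3 CPM, of which replicate 2 stood high. The AAV-GFP range was 25.4 to 60.7 CPM (median 35.2). AAV-miR-34b/c livers ran from 39.8 to 89.5 CPM (median 61.8), all 7 above the AAV-GFP median and 4 above every AAV-GFP library. It did not pass the test between the TAA groups (log2 fold change 0.63, SE 0.23, adjusted p = 0.163 by edgeR) or against vehicle (0.68, SE 0.26, adjusted p = 0.0721). The latter passed without vehicle replicate 2 (1.04, adjusted p = 0.00775), without AAV-miR-34b/c replicate 7 (0.78, adjusted p = 0.0482) and with limma-voom (0.74, adjusted p = 0.0115). With close pairs summed, neither passed (adjusted p = 0.400 between the TAA groups and 0.365 against vehicle by edgeR). AAV-GFP and vehicle differed by 0.042 (95% interval -0.54 to 0.63, adjusted p = 0.939).

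*Nfe2l2*, the transcript of NRF2, whose activity is set mainly by the stability of its protein (chr2:75675513-75704641, minus strand), had 69.1, 61.0, 68.3, 64.9 and 72.7 CPM in vehicle livers. AAV-GFP livers ran from 69.8 to 97.1 CPM (median 77.6), all above the vehicle median and 5 of 7 above every vehicle library. AAV-miR-34b/c livers ran from 44.8 to 75.0 CPM (median 52.5), with 6 of 7 libraries below every AAV-GFP library and 5 of 7 below every vehicle library. The highest of them, replicate 7 at 75.0 CPM, was the exception against AAV-GFP and lay above every vehicle library. Between the TAA groups the log2 fold change was -0.50 (SE 0.14), just short of the threshold (adjusted p = 0.0599 by edgeR). It passed with at least 10 counts in every library (0.0484), with DESeq2 (0.0148), with limma-voom (0.0254), with library size as the only scaling (0.0181), with all 3 groups in one fit (0.0314) and without AAV-miR-34b/c replicate 7 (-0.58, adjusted p = 0.0276), and fell further short with no filter on low counts (0.122), with the replicate block (0.123) and with close pairs summed (0.289). Without each of the 13 other libraries in turn the adjusted p was 0.0544 to 0.141. Against vehicle it was 0.23 (SE 0.15, adjusted p = 0.293) in AAV-GFP and -0.25 (SE 0.15, adjusted p = 0.230) in AAV-miR-34b/c livers.

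**Figure D3:**
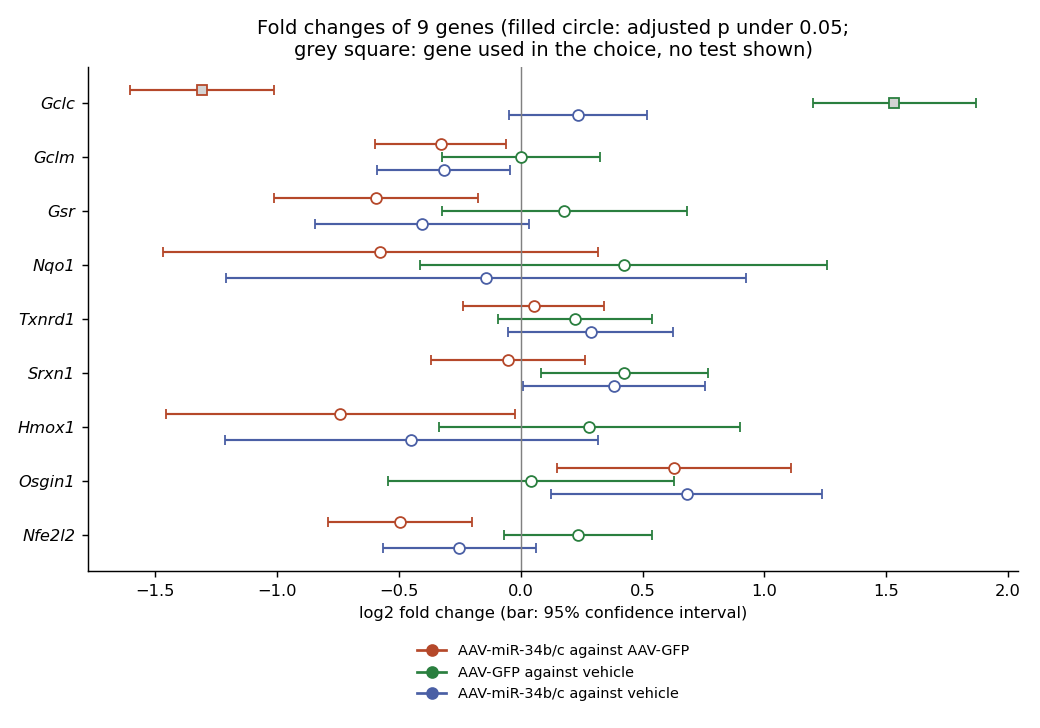
Log2 fold change (horizontal axis) with its 95% confidence interval (bar) for the 9 fitted genes in the 3 comparisons. Grey squares mark *Gclc* in the comparisons known when it was chosen, at -1.31 and 1.53, with no test, circles would be filled where the adjusted p was under 0.05 and are all open, and the intervals of *Nqo1*, at 1 to 31 counts a library, are the widest of the 9 genes in all 3 comparisons.

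Within groups, the 9 tested genes showed correlations of both signs. After group means were subtracted, their 36 pairs had Pearson correlations from -0.48 to 0.41 over the 19 libraries with a median of -0.067, and 14 were positive. Of these pairs, 0 had an adjusted p under 0.05 by a permutation test. They share libraries, and values at low counts carry counting noise. The SD of log2 CPM within a group was 0.11 to 0.25 for *Gclc* and 0.096 to 0.25 for *Nfe2l2*, and reached 0.62 for *Osgin1*, 0.81 for *Hmox1* and 0.99 for *Nqo1*.

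Over the 19 libraries, genes outside the list whose log2 CPM correlated most with that of *Gclc*, among 9421 genes with a mean of at least 10 counts, included *Gsta2* (r = 0.92), a glutathione S-transferase, *Col1a1* (0.92), a fibrillar collagen, *Nr4a1* (0.90), an immediate early nuclear receptor, and *Ephx1* (0.89), microsomal epoxide hydrolase. Among the other members, r ran from -0.24 for *Osgin1* to 0.59 for *Nfe2l2*. These correlations follow the 3 groups. *Gsta2* was at 12.8 ± 2.03 CPM in vehicle (SD, n = 5), 65.2 ± 12.5 in AAV-GFP (SD, n = 7) and 13.5 ± 2.77 CPM with miR-34b/c (SD, n = 7). *Ephx1* was at 152 ± 20.3, 379 ± 55.3 and 168 ± 26.1 CPM in the same order. After subtraction of group means, the correlation with *Gclc* was -0.18 for *Gsta2* and -0.29 for *Ephx1*, against 0.45 for *Col1a1*. Reads of *Gsta2* and of its close copies could be split between them, so that its level is uncertain.

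Markers of other cells differed between the groups too. The summed level of 8 markers of activated hepatic stellate cells (HSC), none of them at 0 in all libraries, was 39.2 to 101 CPM in vehicle, 96.9 to 227 CPM in AAV-GFP and 49.4 to 90.7 CPM in AAV-miR-34b/c livers. Of the tested markers, 3 of 6 were called higher in AAV-GFP than in vehicle (7.54% of all genes) and 2 of 4 lower in AAV-miR-34b/c than in AAV-GFP (1.42%). *Col3a1*, the most counted of them, had 55.1 ± 11.4 CPM in AAV-GFP and 20.3 ± 9.86 CPM in AAV-miR-34b/c livers (SD, n = 7 each). The summed hepatocyte list of 8 genes was at 60496 to 68376 CPM in AAV-GFP and 48066 to 83214 CPM in AAV-miR-34b/c livers. In AAV-miR-34b/c livers 17 of 19 acute phase genes were called higher than in AAV-GFP livers (1.95% of all genes), with a median log2 fold change of 1.604, and the 5 neutrophil markers summed to 61.7 to 1911 CPM against 14.2 to 72.6 CPM. The 6 cholangiocyte markers summed to 18.2 to 40.9 CPM in vehicle, 52.7 to 94.4 CPM in AAV-GFP and 49.9 to 119 CPM in AAV-miR-34b/c livers, most of it from *Sox9* and *Spp1*. *Sox9*, the most counted of them, had its highest mean with miR-34b/c (18.2, 34.2 and 48.6 CPM in the order of the groups above). *Spp1* (11.5, 29.1 and 18.4 CPM) had its highest mean in AAV-GFP livers. So did the low markers *Krt19* (0.743, 3.08 and 1.09 CPM), *Krt7* (1.005, 2.26 and 0.695 CPM), *Epcam* (0.710, 3.56 and 1.08 CPM) and *Cftr* (0, 0.222 and 0.0975 CPM). The low markers were named after their values were seen. Pericentral hepatocyte markers, 8 genes, had medians of 3615, 2901 and 2546 CPM in the same order, and 12 clock output genes had medians of 336, 247 and 144 CPM. The pericentral markers did not move alike. Means of *Cyp2e1*, the most counted of them, were 1749, 1333 and 1129 CPM. *Glul* had 633, 374 and 647 CPM and *Slc1a2* 82.3, 40.2 and 77.5 CPM, both picked after their values were seen. On the basis of summed close pairs, 69 genes of the whole table were called between the TAA groups and 193 between AAV-GFP and vehicle, in either direction. On that basis, 2 of 4 HSC markers were called lower between the TAA groups, and 1 of 6 endothelial, 2 of 3 neutrophil and 6 of 19 acute phase genes higher. Of 11 macrophage, 8 hepatocyte, 2 cholangiocyte, 7 pericentral and 9 clock output genes tested, 0 were called. Between AAV-GFP and vehicle, 1 of 6 HSC markers was called higher. In that comparison 1 of 12 macrophage markers, 2 of 8 pericentral markers, 1 of 19 acute phase genes and 1 of 11 clock output genes were called lower. The part of these cells, of the acute phase state and of clock output in the values of the 10 genes was not tested.

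The other genes of the pathway were read from lists of known members, which were made with results of these data known, so that their counts and medians are a description and no independent support for a direction. Of the tested genes of these lists, 9 of 84 (10.7%) were called between the TAA groups, beside 3.36% of all genes. Between AAV-GFP and vehicle, 23 of 86 (26.7%) were called, beside 12.7%. *Gsta2* is in both counts, and nothing about the lists is read from these shares. By direction, all genes were at 1.42% lower and 1.95% higher in the former, and 7.54% higher and 5.19% lower in the latter. With close pairs summed, every called gene of these lists had the same sign, but apart from *Gsta2*, 4 of 8 kept their call between the TAA groups, 6 of 22 between AAV-GFP and vehicle, and 4 of 22 for AAV-miR-34b/c relative to vehicle. Those called on that basis are named in each comparison below. Of 14 tested further NRF2 targets of detoxification, iron and transport, all 14 had a negative log2 fold change between the TAA groups, with a median of -0.51 against -0.0075 over all genes, but 3 passed the test and none passed in the other direction. *Ephx1* fell by 1.19 on the log2 scale (SE 0.14, adjusted p = 7.66e-05 by edgeR), *Cbr3*, a carbonyl reductase, by 1.95 (SE 0.41, adjusted p = 0.0106), and *Aox1*, an aldehyde oxidase, by 1.33 (SE 0.29, adjusted p = 0.0120). With close pairs summed, *Ephx1* (adjusted p = 0.0234) and *Cbr3* (0.0420) passed, and *Aox1* (0.113) did not. In AAV-GFP relative to vehicle livers, 6 of 15 rose and none fell, with a median of 0.53 against -0.0090. *Ephx1* rose by 1.32 (adjusted p = 3.57e-05), *Slc48a1*, a heme transporter, by 0.95 (adjusted p = 0.00262) and *Ftl1*, the ferritin light chain, by 0.997 (adjusted p = 0.00812). Of the 6, *Ephx1* alone passed with close pairs summed (adjusted p = 0.00698). These comparisons share the AAV-GFP libraries, so that opposite signs in them are not independent.

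The glutathione S-transferases conjugate glutathione to electrophiles. Against vehicle, 6 of 11 rose in AAV-GFP livers and none fell (median 0.70), beside 7.54% of all genes called higher and 5.19% lower. Among the 6 were *Gsta2* (2.34, SE 0.20), *Gstm3* (2.34, SE 0.28, adjusted p = 2.26e-05 by edgeR) and *Gstm2* (1.41, SE 0.18, adjusted p = 6.70e-05). In AAV-miR-34b/c relative to AAV-GFP livers, 4 of 11 fell and none rose (median -0.56), beside 1.42% of all genes called lower and 1.95% higher. *Gsta2* was at -2.28 (SE 0.17), and *Gsta4* fell by 1.09 (adjusted p = 0.00158), *Gstm4* by 0.78 (adjusted p = 0.00493) and *Gstm3* by 1.12 (adjusted p = 0.0108). Members of this family are close copies, so that their reads could be lost or split. *Gsta2* was among the genes seen before the list was made, so that its p is not given and its place in these counts is fixed by the choice. With close pairs summed, *Gstm1*, *Gstm2* and *Gstm3* kept their call in AAV-GFP against vehicle livers, and *Gsta4* (adjusted p = 0.0365) between the TAA groups.

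Of 10 tested genes of glutathione synthesis and turnover, none was called between the TAA groups, at a median of -0.071. In AAV-GFP relative to vehicle livers, *Slc3a2*, the heavy chain of the cystine importer, rose by 0.82 (SE 0.18, adjusted p = 0.00778 by edgeR) and *Cbs*, the entry enzyme of transsulfuration, by 1.02 (SE 0.24, adjusted p = 0.0102), whereas *Chac2*, which degrades glutathione, fell by 1.04 (SE 0.28, adjusted p = 0.0209). None of these 3 passed with close pairs summed (adjusted p = 0.104 to 0.130). None of 9 glutathione peroxidases, glutaredoxins and glyoxalases was called between the TAA groups or between AAV-GFP and vehicle. Of 14 thioredoxins and peroxiredoxins, *Txnip*, an inhibitor of thioredoxin, fell by 1.54 (SE 0.35, adjusted p = 0.0181) between the TAA groups and none was called between AAV-GFP and vehicle. Of the NADPH supply genes, *Pgd* of the pentose phosphate pathway rose by 0.71 (SE 0.22, adjusted p = 0.0404) between AAV-GFP and vehicle, and none of 8 was called between the TAA groups. With close pairs summed, neither *Txnip* (adjusted p = 0.0998) nor *Pgd* (0.177) passed.

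Among 11 genes that control NRF2, *Maff*, a small MAF protein, was the 1 called between the TAA groups, where it fell by 2.58 (SE 0.33, adjusted p = 0.000145 by edgeR). It was at 3.59 ± 2.45 CPM in vehicle (SD, n = 5), 11.7 ± 3.43 in AAV-GFP and 1.88 ± 1.04 in AAV-miR-34b/c livers (SD, n = 7 each). In AAV-GFP livers, 4 of 11 rose against vehicle and none fell, beside 7.54% of all genes called higher and 5.19% lower. *Maff* rose by 1.72 (adjusted p = 0.00722), its relative *Mafg* by 1.15 (adjusted p = 0.00903), *Gsk3b*, a kinase that marks NRF2 for degradation, by 1.32 (adjusted p = 0.0109), and *Nfe2l1*, which encodes the related factor NRF1, by 0.97 (adjusted p = 0.0301). With close pairs summed, *Maff* passed in both comparisons (adjusted p = 0.00461 and 0.0184) and the other 3 did not (0.158 to 0.309). Neighbouring pathways were tested with them. Of the ATF4 targets, which include genes of amino acid supply, 0 of 5 were called between the TAA groups. Between AAV-GFP and vehicle, 2 of 7 rose and 1 fell, beside 7.54% of all genes called higher and 5.19% lower. *Atf5* rose by 1.36 (adjusted p = 0.00277), *Atf3* by 2.33 (adjusted p = 0.0152), and *Asns* fell by 2.04 (adjusted p = 0.0133), of which *Atf5* passed with close pairs summed (0.0490). None of 2 tested targets of the aryl hydrocarbon receptor was called in either comparison.

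**Figure D4:**
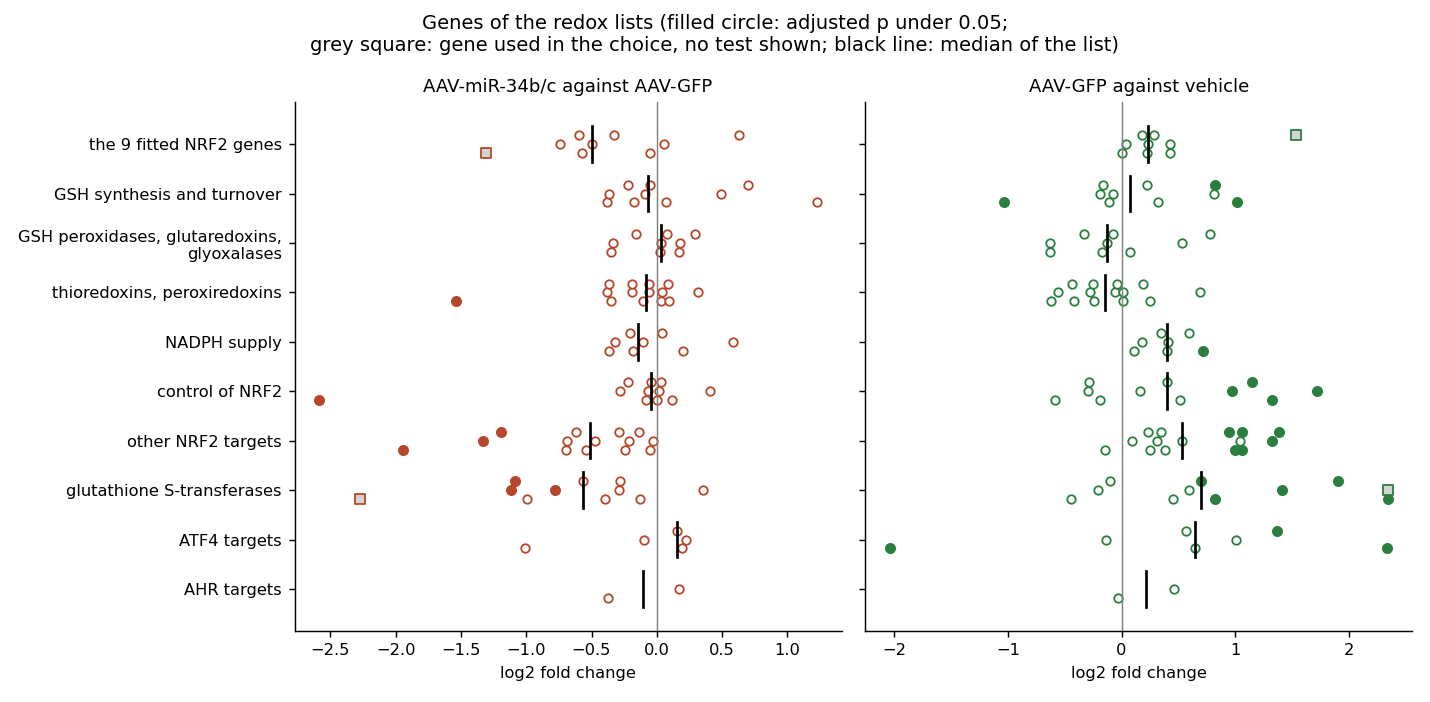
Log2 fold change (horizontal axis) of each tested gene of the 10 redox lists, for AAV-miR-34b/c against AAV-GFP (left) and AAV-GFP against vehicle (right), with circles filled where the adjusted p was under 0.05, grey squares for *Gclc* and *Gsta2*, which were used in the choice, and the median of each list as a black line. Medians of the further NRF2 targets lie at -0.51 and 0.53 and those of the glutathione S-transferases at -0.56 and 0.70. The panels share the AAV-GFP libraries.

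Against vehicle, 22 of the 82 tested genes of these lists (26.8%) were called in AAV-miR-34b/c livers, beside 21.9% of all genes in either direction, and nothing about the lists is read from this share. The genes named here were chosen after their values were seen, and of the 22 called only *Slc48a1*, *Gstm2*, *Gstm3* and *Atf5* passed with close pairs summed (adjusted p = 0.0284 to 0.0377). In glutathione synthesis and turnover, *Ggt6*, *Cbs*, *Slc3a2* and *Chac1* rose (by 1.52, 1.10, 0.66 and 1.56) and *Chac2* fell by 1.40, with adjusted p from 0.00143 to 0.0282 by edgeR. Of the peroxidases, glutaredoxins and glyoxalases, *Glo1* (0.62) and *Gpx3* (0.96) rose and *Glrx3* fell by 0.59. *Prdx4*, a peroxiredoxin, fell by 0.77, and *Pgd* rose by 0.92. *Keap1*, the inhibitor of NRF2, rose by 0.58 (SE 0.18, adjusted p = 0.0275) along with *Mafg*, *Gsk3b* and *Nfe2l1*. It was at 57.9 ± 6.22 CPM in vehicle (SD, n = 5) and 85.9 ± 18.5 CPM in AAV-miR-34b/c livers (SD, n = 7). Of the further NRF2 targets, *Slc48a1* (0.93) and *Ftl1* (0.79) rose and *Blvrb*, a biliverdin reductase, fell by 0.83 (adjusted p = 0.00234). *Gsta2* (0.076, SE 0.21, adjusted p = 0.822) and *Ephx1* (0.14, SE 0.15, adjusted p = 0.504) did not pass the test. The value of *Gsta2* follows nearly from those in the comparisons used in its choice, so that its p is no independent test. *Gstm1*, *Gstm2* and *Gstm3* rose (by 0.92, 1.02 and 1.23), and *Gsta3* fell by 0.65 (adjusted p = 0.0446).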

How the data were processed

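Libraries of 3′ mRNA ends were made from liver RNA of 19 mice (single-end reads). The labels name a QuantSeq kit and the methods of the study a NEGEDIA Digital mRNA-seq kit, and which of them was used is not settled here. The authors deposited 1 table of raw counts, 1 row per gene, which is not normalized. According to the methods and the submitters' processing notes, reads were filtered, trimmed, aligned with STAR to mm10 and counted by gene. Annotation release, strand setting and molecular identifiers are not given in the sources used here, so that counts can include PCR duplicates and reads shared with overlapping genes, and counting errors cover counting alone. Symbols and positions came from GENCODE M21 (GRCm38). No column was left unmapped.

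Each comparison was fitted with edgeR 4.0.16 in R 4.3.3 (TMM, filterByExpr at its count limits of 10, and 15 in total, quasi-likelihood test) on the 2 groups compared, with Benjamini-Hochberg adjustment over all 9252, 9522 or 9290 genes tested and a threshold of 0.05. Standard errors and 95% intervals are those of the fitted log2 fold change. CPM are TMM-normalized over 19 libraries, and log2 CPM has a prior count of 2. *Slc7a11* was compared by an exact permutation test.

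Named are all 10 members, up to 3 called genes with the smallest adjusted p per list and comparison of AAV-GFP with either other group, the 5 genes most like *Gclc* (1 of them is not reported here), and the most counted marker of a list where that list is described. *Nfe2l1* was added after its value was seen. The members and all lists were chosen with earlier results of these data known. Symbols of *Tf* and *Ddit3* had no single row in the table. Alternatives were DESeq2's size factors or library size only as scaling, no filter or a floor of 10 counts in each library, the tests of DESeq2 1.42.0 and of limma 3.58.1 (voom, with quality weights per sample), all 3 groups in one fit, the replicate block, close pairs summed and each library left out. Close pairs summed was extended to the pathway and marker lists after seeing the data.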

Additional observations from a re-analysis of the deposited data

Results flagged for a closer look

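Within groups of 5 or 7 libraries, 36 sets of values were examined for a library that stands apart from the others by a gap large against the whole range (Dixon's test at the 95% level), and 5 were found. Chance gives about 1 in 20 for normally distributed values. This share does not hold for *Slc7a11*, which had no counts in most libraries. Its vehicle set, without a count, is among the 36 but could not be flagged. *Gsr* was at 12.7 CPM in AAV-GFP replicate 6, against 29.1 to 37.0 CPM in the 6 other AAV-GFP livers. *Slc7a11* was at 3.30 CPM in AAV-GFP replicate 1 (10 counts), against 0 to 0.325 CPM in the others, and at 0.203 CPM in AAV-miR-34b/c replicate 6, which is 1 count against 0. The ratio of *Gclc* to *Gclm* counts was 1.30 in AAV-miR-34b/c replicate 6, against 0.829 to 0.955 in the 6 other livers of that group. The total of AAV-GFP replicate 5 was 4383805 counts, against 2463842 to 3239809 in the other AAV-GFP libraries. The cause of these values was not tested.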

How the results depend on the processing

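The log2 fold change of *Gclc*, a description since the gene was chosen for it, ran over the alternatives from -1.50 to -1.22 between the TAA groups (-1.38 to -1.26 with 1 library left out) and from 1.47 to 1.61 for AAV-GFP against vehicle (1.49 to 1.61). The counts of calls that follow include *Gclc* in these 2 comparisons. Of the 9 genes fitted, 1 was called between the TAA groups, 2 with at least 10 counts in every library (where *Nqo1* and *Hmox1* could not be fitted), with DESeq2 and with all 3 groups in one fit, 3 with limma-voom, 4 with library size only, and 1 to 2 without 1 library. Between AAV-GFP and vehicle the count of 1 became 2 with limma-voom and 2 with the replicate block, and 1 to 2 without 1 library. Between AAV-miR-34b/c and vehicle the count of 0 became 1 with library size only, with DESeq2 and with the replicate block, 3 with limma-voom, and 0 to 1 without 1 library. Library size alone shifted the median of all genes by -0.19, 0.063 and -0.14 (log2) in the 3 comparisons, and the members it added were all lower in AAV-miR-34b/c livers. Over all genes, the 311 calls between the TAA groups became 624 (library size only), 574 (DESeq2), 813 (limma-voom), 142 (replicate block), 69 (close pairs summed) and 209 to 344 (1 library left out). The 1212 calls between AAV-GFP and vehicle became 2687 (limma-voom), 3088 (replicate block), 193 (close pairs summed) and 689 to 1859 (1 library left out, lowest without vehicle replicate 4 and highest without AAV-GFP replicate 6, with 728 without vehicle replicate 1 and 806 without AAV-GFP replicate 3). The 2037 calls between AAV-miR-34b/c and vehicle became 3839 (limma-voom), 922 (replicate block), 331 (close pairs summed) and 1267 to 2695 (1 library left out, 1267 without vehicle replicate 4 and 1328 without vehicle replicate 1). The causes were not tested, except that close pairs summed leave fewer samples. The replicate block keeps only replicate numbers found in both groups. Against vehicle it therefore rests on fewer libraries, without replicates 6 and 7 of the TAA group.

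Signs turned only for values near 0. Between the TAA groups *Txnrd1* was at -0.15 with library size only, -0.050 with limma-voom and -0.036 to 0.11 without 1 library, and *Srxn1* at 0.031 with limma-voom. Between AAV-GFP and vehicle *Gclm* was at -0.035 with limma-voom, -0.00088 with all 3 groups in one fit, -0.093 with the replicate block and -0.054 to 0.092 without 1 library, and *Osgin1* at -0.15 with close pairs summed and -0.10 to 0.40 without 1 library. Between AAV-miR-34b/c and vehicle *Nqo1* was at 0.082 with the replicate block and -0.47 to 0.12 without 1 library. Same-numbered libraries of different groups correlated at -0.31 to 0.30 in their deviations from the group means, with both signs. Such a correlation across groups does not bear on the close pairs within a group. Among these pairs were replicates 1 and 2 and replicates 3 and 4 in both TAA groups. What the numbers stand for was not tested. With the replicate block *Srxn1* passed the test between AAV-GFP and vehicle (0.49, adjusted p = 0.0321) and *Osgin1* between AAV-miR-34b/c and vehicle (0.87, adjusted p = 0.0220), and no other call of the 9 genes changed. Both of these fits lack replicates 6 and 7 of the TAA group, and the block and the loss of libraries were not told apart. *Slc7a11*, with 0 to 10 counts a library, could not be fitted, and *Nqo1* had 1 to 31 counts. For the genes of the pathway and marker lists, close pairs summed was applied after seeing the data.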
